A study of Mus musculus with 24 samples.

Results

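The Tr1-like cells described here were 82 single liver-resident invariant natural killer T (LiNKT) cells from αGalCer/CD1d-NP-treated NOD mice, out of 259 treated cells that passed the filters, 282 treated cells in the count table and 566 cells in both SmartSeq2 tables. They were selected on 3 genes. A cell was kept if it had at least 100000 counts and fewer than 100 counts of the macrophage genes Lyz2, C1qa and Csf1r summed, and it was called Tr1-like if it had at least 10 counts of Il10, Il21 or Lag3. Il10 and Il21 encode secreted cytokines and Lag3 encodes an inhibitory receptor. The other 177 kept treated cells served as the comparison, and 280 kept cells of untreated NOD mice were the background.

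Invariant NKT cells carry a semi-invariant αβ T-cell receptor that recognises glycolipids such as αGalCer presented by CD1d. The liver is rich in them, and in mice they share many natural killer (NK) cell receptors and cytotoxic genes. T regulatory type 1 (TR1) cells are IL-10-producing T cells that lack FoxP3, are known for co-expressing LAG-3 with other inhibitory receptors, and use the transcription factor c-MAF (Maf) to drive Il10.

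Both SmartSeq2 samples came from male NOD mice of 13 to 15 weeks, 3 mice in each group, whose cells were not labelled by mouse. The treated mice received αGalCer/CD1d-NP, iron oxide nanoparticles coated with CD1d loaded with αGalCer (KRN7000, hence the label KRN), at 20 µg given 2 times per week for 5 weeks. The control mice were untreated. Cells were sorted as TCRβ-intermediate, αGalCer/CD1d tetramer-positive cells. With 1 sample in each group and cells that are not replicates, no test between groups or parts was possible. Shares of cells are given with exact (Clopper-Pearson) 95% confidence intervals, and levels as CPM, counts of a set of cells scaled to a total of 1000000. The intervals cover counting error only, and SmartSeq2 reads carry no molecular identifiers.

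The Tr1-like cells had a median of 660136 counts (range 130384 to 1371451), against 598715 in the remaining treated cells and 637857 in the untreated cells. They also had more genes per cell, with a median of 996.5 against 842 and 865.5. After each cell was thinned at random to 100000 counts the medians were 756, 661 and 671.5 genes. Of all tested genes, 62.0% of 3196 were found in a larger share of the Tr1-like cells than of the remaining cells, with a median difference of 1.64 percentage points, whereas the median log2 CPM ratio was -0.03. The calls below were repeated on the thinned counts.

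The T-cell label of the 82 cells was checked on their receptor genes. At least 10 counts of Cd3e were found in 87.8% of them (95% CI 78.7 to 94.0), of Cd3g in 89.0% (80.2 to 94.9) and of Trac in 76.8% (66.2 to 85.4). The invariant segments were poorly covered, with Trav11 in 14.6% of the Tr1-like cells, 16.9% of the remaining treated cells and 17.1% of the untreated cells. Zbtb16, which encodes the iNKT lineage factor PLZF, was found in 11.0% (5.14 to 19.8), against 3.95% and 3.21%. None of the 12 macrophage markers and none of the 6 neutrophil markers had a count in any Tr1-like cell. Hepatocyte markers, at 10 or more counts summed over their list, were found in 3.66% of the Tr1-like cells and 6.21% of the remaining cells, and erythroid and platelet markers in 3.66% and 6.78%. Summed levels in these parts were 43.9 and 346 CPM for hepatocyte markers and 108 and 756 CPM for erythroid and platelet markers. B cell markers were at 390 and 243 CPM, nearly all of it Ighm (388 and 243 CPM), and dendritic cell markers at 80.3 and 45.0 CPM. Of the 4 conventional T cell markers, Cd8a and Cd8b1 were at 0 and Foxp3 was found in 1 Tr1-like cell, while Cd4, described later, brought the list to 30.5% of the Tr1-like, 7.34% of the remaining and 5.71% of the untreated cells (534 CPM in the first and 186 CPM in the second). Endothelial and stellate cell markers were at 54.2 CPM in the Tr1-like and 6.15 CPM in the remaining cells, with 6 of the 8 genes at 0 in every Tr1-like cell. The part of these in the results was not tested.

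The counts of Il10, Il21 and Lag3 chose the cells and are given as a description. Lag3 reached 10 counts in 64 of the 82 cells (78.0%), with a median of 1682 counts and a range of 20 to 6400 in those cells. Il10 did so in 38 cells (46.3%), with a median of 1248 counts (range 21 to 8528), and Il21 in 31 cells (37.8%), with a median of 296 counts (range 13 to 2193). The cell nearest to the threshold from inside had 39 counts on its leading gene and the next had 60. The nearest outside had 2 counts, and 174 of the 177 remaining cells had no count of any of the 3 genes.

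No untreated cell had a single count of Il10, Il21 or Lag3. The rule thus found 31.7% of the treated cells (26.0 to 37.7) and 0 of 280 untreated cells, for which 3 counts of the total would be a share of 1.07% and the exact upper limit is 1.31%. As these genes chose the cells and the spread between mice is not known, this is a description of the 2 samples. The share was 30.6% (53 of 173 cells) among treated cells whose names carry the first of the 2 prefixes in the table and 33.7% (29 of 86) among those with the second, and the intervals of these shares overlapped.

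The 3 genes marked overlapping but unequal sets of cells. Of the 82 cells, 38 (46.3%) had 2 or 3 of the genes, and 13 of them had all 3. Lag3 alone was found in 30 cells, Il10 alone in 9 and Il21 alone in 5. Il10 with Lag3 was found in 12 cells, Il21 with Lag3 in 9, and Il10 with Il21 in 4. Over all kept treated cells, Il10 was found in 54.8% of the 31 cells with Il21 and in 9.21% of the 228 cells without it. As these genes define the cells, the values are a description.

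**Figure D1:**
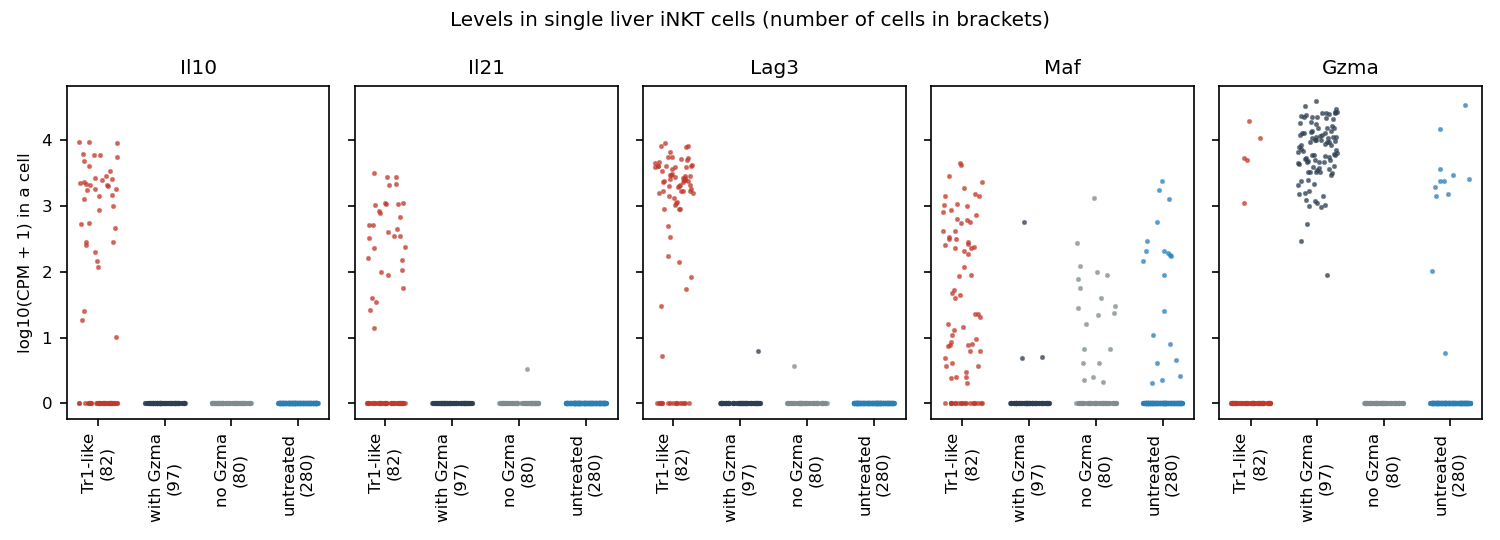
Level of Il10, Il21, Lag3, Maf and Gzma in every kept cell, as log10(CPM + 1), for Tr1-like cells, remaining treated cells with and without at least 10 counts of Gzma, and untreated cells. Each point is 1 cell, with a horizontal jitter. Il10, Il21 and Lag3 chose the Tr1-like set, and lie at 0 in all 280 untreated cells, whereas Maf, which the rule did not use, is spread from 0 to 4401 CPM in the Tr1-like cells.

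Methylation data of the same cell type were available for these loci. The stretches shown here lie in deposited regions at 2 of the selecting genes and at Maf, Tigit and Pdcd1, 3 genes called higher below. They are shown because a readout that the rule did not use was deposited there. Other higher genes with a region, such as Ctsb, are not shown. Each stretch is the plus strand of GRCm38.p6 from the RefSeq genome, 5′ to 3′, at most 300 bases long, and the CpG sites with a deposited value are in capitals. The first lies in an intron of Il10 (chr1:131021621-131021920), the second in an intron of Il21 (chr3:37229778-37230077), the third in an intron of Maf (chr8:115700891-115701190), the fourth in an intron of Tigit (chr16:43661580-43661851) and the last upstream of Pdcd1 (chr1:94053268-94053567).
Il10: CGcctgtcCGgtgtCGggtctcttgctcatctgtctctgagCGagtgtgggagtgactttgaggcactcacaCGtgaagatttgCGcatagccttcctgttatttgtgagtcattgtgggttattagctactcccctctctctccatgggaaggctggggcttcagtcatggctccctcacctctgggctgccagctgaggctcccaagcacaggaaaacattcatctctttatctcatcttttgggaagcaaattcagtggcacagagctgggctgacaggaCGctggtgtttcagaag
Il21: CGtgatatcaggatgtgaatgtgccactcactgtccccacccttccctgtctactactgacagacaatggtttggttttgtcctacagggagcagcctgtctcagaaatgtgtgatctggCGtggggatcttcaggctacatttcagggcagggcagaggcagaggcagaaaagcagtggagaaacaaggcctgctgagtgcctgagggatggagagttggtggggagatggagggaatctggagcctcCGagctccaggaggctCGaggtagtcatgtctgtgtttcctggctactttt
Maf: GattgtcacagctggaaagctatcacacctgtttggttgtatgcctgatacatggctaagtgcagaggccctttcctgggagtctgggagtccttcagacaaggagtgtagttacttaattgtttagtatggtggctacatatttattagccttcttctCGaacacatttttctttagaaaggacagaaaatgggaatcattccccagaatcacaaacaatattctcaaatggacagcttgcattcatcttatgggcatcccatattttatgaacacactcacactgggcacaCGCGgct
Tigit: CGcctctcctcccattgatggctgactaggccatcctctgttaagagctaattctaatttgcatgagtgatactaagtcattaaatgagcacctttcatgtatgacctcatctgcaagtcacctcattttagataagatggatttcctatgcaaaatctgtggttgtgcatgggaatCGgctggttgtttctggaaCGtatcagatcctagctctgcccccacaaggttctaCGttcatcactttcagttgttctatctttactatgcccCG
Pdcd1: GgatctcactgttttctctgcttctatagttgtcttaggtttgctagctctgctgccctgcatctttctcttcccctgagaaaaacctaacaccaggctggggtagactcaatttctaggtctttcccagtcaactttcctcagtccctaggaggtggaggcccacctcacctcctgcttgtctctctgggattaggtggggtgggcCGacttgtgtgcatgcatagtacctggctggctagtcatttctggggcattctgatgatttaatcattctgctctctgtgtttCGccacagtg
Mean methylation of the CpG sites in capitals, in untreated and treated LiNKT cells, was 59.8% and 13.7% at Il10, 78.4% and 26.1% at Il21, 83.3% and 43.6% at Maf, 92.2% and 42.6% at Tigit, and 38.2% and 9.80% at Pdcd1. All 5 stretches were lower in the treated cells. The authors had selected the regions for a difference between the groups, and 69.0% of all deposited regions were lower in the treated cells. The shared direction is therefore no finding. The values are from other mice and from all sorted LiNKT cells, as set out at the end.

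The main comparison asked which other genes distinguished the Tr1-like cells from the remaining treated cells. A gene was called where its CPM, from counts summed over cells with 1 CPM added, differed at least 2-fold and its share of cells with at least 10 counts differed by at least 10 percentage points. Of the 3196 genes with at least 10 counts in at least 5% of the treated cells, 127 (3.97%) were called higher and 63 (1.97%) lower. Among the higher genes were Maf, receptors of the inhibitory and costimulatory families, Cd4 and Il4, and among the lower genes were chemokines, granzymes and NK receptors. Called separately, 96 of the 127 higher and 55 of the 63 lower genes were called within the cells of the first name prefix, and 82 and 49 within those of the second. In all, 176 higher and 79 lower genes were called within the first and 325 and 243 within the second. The cells of each prefix are part of those that gave the 127 and 63, so the overlap is no replication. The calls are sizes and not tests. The filter ran over both sets together, so a gene under 5% in 1 set passed only with a higher share in the other.

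Maf is the marker of the label that the rule left out. It was found in 42 of 82 Tr1-like cells (51.2%, 39.9 to 62.4), in 13 of 177 remaining cells (7.34%, 3.97 to 12.2) and in 4.64% of untreated cells (2.49 to 7.81). Its summed level was 353 CPM in the Tr1-like, 14.5 CPM in the remaining and 27.6 CPM in the untreated cells. Maf thus marked about as many Tr1-like cells as Il10 did. The difference was 36.7 points in the first name prefix and 56.7 in the second.

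Within the Tr1-like cells, each of which has at least 1 of the selecting genes by the rule, Maf was found in 55.3% of the 38 Tr1-like cells with Il10 and 47.7% of the 44 without, in 45.2% of the 31 cells with Il21 and 54.9% of the 51 without, and in 51.6% of the 64 cells with Lag3 and 50% of the 18 without. Outside the Tr1-like cells, Maf was found in 1.03% of the 97 remaining cells with Gzma and in 15.0% of the 80 without.

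Of 12 tested genes of other Tr1-associated transcription factors, counting Maf, 3 were called higher and none lower, against 3.97% and 1.97% over all tested genes, and their median log2 ratio was 1.00, against -0.03 over all tested genes. Nfil3, a basic leucine zipper factor that can induce Il10, was found in 14.6% of Tr1-like and 3.39% of remaining cells. Hif1a, the oxygen-regulated subunit of HIF-1, was found in 20.7% and 3.95%. Ikzf2, which encodes Helios, differed by more in share (30.5% and 3.95%) but its log2 ratio of 0.98 was just under the 2-fold limit, and Nfatc1, a calcium-regulated factor downstream of the T-cell receptor, was found in 70.7% and 31.1% with a log2 ratio of 0.91. Prdm1, encoding BLIMP-1, was found in 12.2% (6.01 to 21.3) and 4.52% (1.97 to 8.71) and was not called. Nfil3, Hif1a, Ikzf2 and Prdm1 were each under 5% of the remaining cells, so they passed the filter only with a higher share in the Tr1-like cells. Vdr, the vitamin D receptor gene, was below the 5% filter, with 10 Tr1-like cells, 1 remaining cell and no untreated cell.

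Inhibitory receptor genes were called in both directions. Of 6 tested genes on the list besides Lag3, 2 were higher and 2 lower, against 3.97% and 1.97% over all tested genes. Pdcd1, encoding PD-1, was found in 41.5% (30.7 to 52.9) of the Tr1-like cells, 12.4% (7.96 to 18.2) of the remaining and 1.43% of the untreated cells. Tigit, a receptor for nectin-family ligands shared with CD226, was found in 36.6% (26.2 to 48.0), 6.21% (3.14 to 10.8) and 0.714%. Cd160 and Cd244a, receptors also found on NK cells, were lower, at 3.66% against 23.7% and 2.44% against 21.5%. Vsir, which encodes the inhibitory B7-family molecule VISTA and was not on that list, was called higher and was found in 54.9% (43.5 to 65.9), 18.6% (13.2 to 25.2) and 6.79%. Ctla4, below the filter, was found in 6 Tr1-like cells, 2 remaining cells and no untreated cell.

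Of 9 tested costimulatory receptor genes, 5 were higher, 1 was lower and 3 were not called, with a median log2 ratio of 1.17, against 3.97% higher and 1.97% lower over all tested genes. Summed over the list, the level was 3383 CPM in the Tr1-like, 2420 CPM in the remaining cells without Gzma, 1094 CPM in those with Gzma and 1355 CPM in the untreated cells. In the same order, 10 or more summed counts were found in 91.5%, 76.2%, 60.8% and 74.3%. The cells without Gzma were thus nearer to the Tr1-like cells than those with Gzma. Izumo1r, encoding folate receptor 4, was found in 40.2% (29.6 to 51.7) of the Tr1-like cells and 10.2% (6.14 to 15.6) of the remaining cells, and within the latter in 1.03% of those with Gzma and 21.2% of those without. Its difference of 30.1 points was 36.7 points in the first name prefix and 16.9 points (-3.71 to 38.6) in the second. Icos was found in 35.4% (25.1 to 46.7) and 7.91% (4.39 to 12.9), and Tnfrsf4, encoding OX40, in 17.1% and 2.82%. Tnfrsf4, under 5% of the remaining cells, passed the filter only with a higher share in the Tr1-like cells. Cd27 was found in 41.5% and 22.0%. Tnfrsf18, encoding GITR, was found in 45.1% and 24.9%, but its difference was 34.5 points in the first name prefix and -7.56 points in the second, so the call rested on the first. Cd226, the activating counterpart of Tigit, was lower, at 7.32% and 18.6%.

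Cd4 was found in 30.5% of the Tr1-like cells (20.8 to 41.6), against 4.52% (1.97 to 8.71) of the remaining and 4.64% of the untreated cells. Its level was 520, 106 and 74.9 CPM. Cd4, under 5% of the remaining cells, passed the filter only with a higher share in the Tr1-like cells. Cd4 lies on the same strand as the selecting gene Lag3 with 16139 bases between them (chr6:124864692-124888221 and chr6:124904361-124911705). Among the Tr1-like cells without Lag3, chosen on Il10 or Il21 only, it was found in 16.7% of 18 cells (3.58 to 41.4).

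Of 3 tested genes of classical iNKT cytokines, only Il4 was called, as higher, against 3.97% called higher and 1.97% lower over all tested genes. It was found in 22 Tr1-like cells (26.8%, 17.6 to 37.8), 4 remaining cells (2.26%, 0.619 to 5.68) and 8.57% of untreated cells (5.57 to 12.5). Ifng, the type 1 effector cytokine gene, was found in 36.6% (26.2 to 48.0) and 18.1% (12.7 to 24.6), with a log2 ratio of 0.81 that left it uncalled. Within the Tr1-like cells, Il4 was found in 44.7% (28.6 to 61.7) of the 38 cells with Il10 and in 10 of the 17 cells with both Il10 and Il21. Ifng was found in 39.5% (24.0 to 56.6) of the cells with Il10. Cells with Il10 thus included cells with Il4 or Ifng.

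The leading higher genes by share were not all immune receptors. Ctsb, encoding the lysosomal protease cathepsin B, was found in 59 of 82 Tr1-like cells (72.0%, 60.9 to 81.3), 26.6% of the remaining and 27.9% of the untreated cells. Srgn, encoding serglycin, the proteoglycan of secretory granules, was found in 90.2%, 62.1% and 57.5%. Lgals1, encoding the secreted lectin galectin-1, was found in 78.0%, 46.3% and 48.9%. In these genes the remaining treated cells were close to the untreated cells and the Tr1-like cells stood above both.

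Ccnd2, encoding the G1 cyclin D2, was found in 78.0%, 44.1% and 56.1%, in the same order of parts. Snx2, a sorting nexin gene, was found in 40.2%, 7.91% and 6.79%. Sdf4, encoding a calcium-binding protein of the Golgi, was found in 50%, 19.2% and 24.6%, with a difference of 30.8 points that was 16.7 points when Il10 and Il21 only chose the cells, and the interferon-inducible Ifi27l2a in 50%, 13.6% and 19.6%. Sccpdh, a putative dehydrogenase gene, was found in 45.1% (34.1 to 56.5) of Tr1-like and 4.52% (1.97 to 8.71) of remaining cells and in none of the untreated cells. Being under 5% of the remaining cells, Sccpdh passed the filter only with a higher share in the Tr1-like cells. St6galnac1, a sialyltransferase gene, was found in 34.1%, 5.65% and 1.07%, and Limd2 in 73.2%, 44.1% and 47.1%. Zap70, the kinase of the CD3 complex, was found in 62.2% of the Tr1-like and 35.6% of the remaining cells. It was the only one of 16 tested CD3 and proximal signalling genes called, against 3.97% called higher and 1.97% lower over all tested genes.

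**Figure D2:**
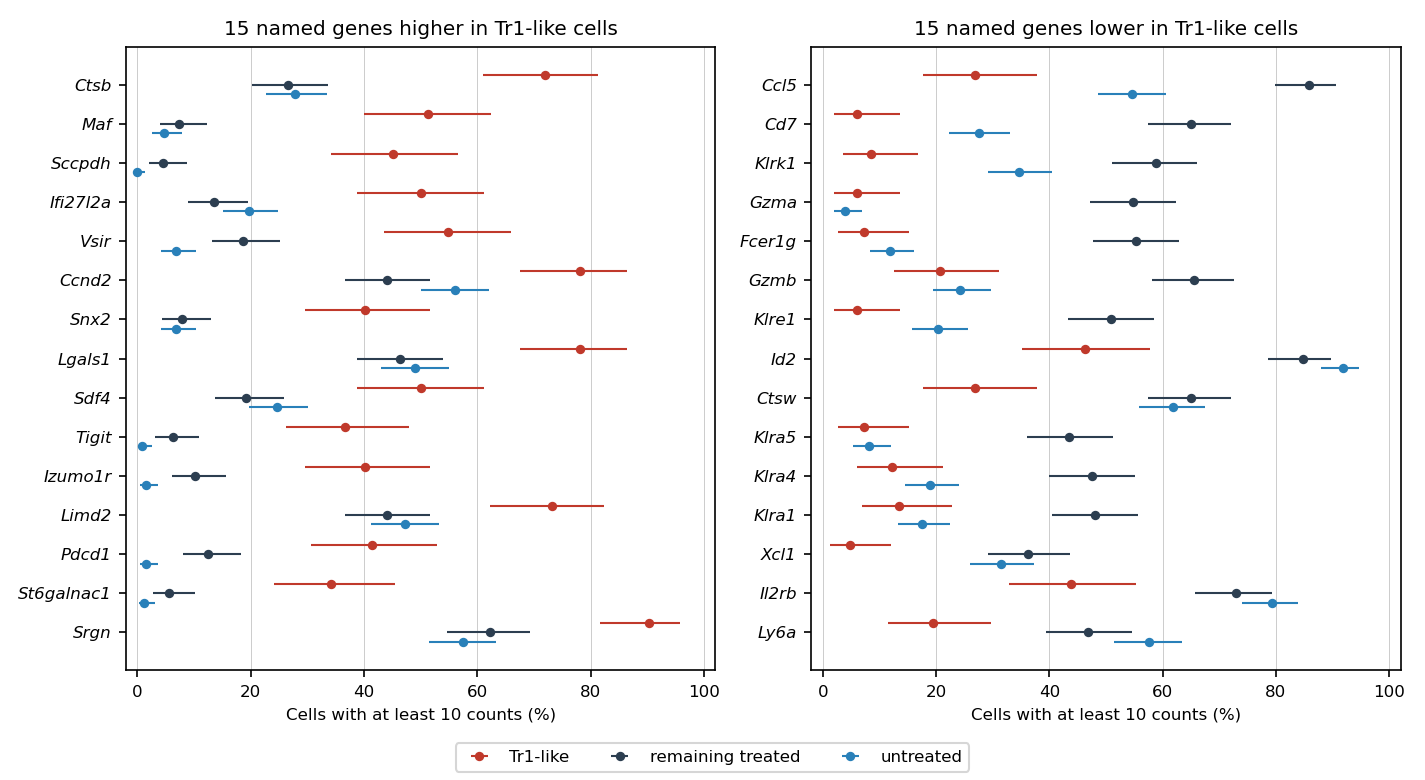
Share of cells with at least 10 counts (%, points) with exact 95% intervals (bars) for the 15 genes with the largest share difference among the higher and the lower genes. In the left panel the Tr1-like cells lie above both other sets. In the right panel they lie below the remaining cells for all 15 genes and also below the untreated cells, except for Gzma (6.10% and 3.93%).

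Of the 63 lower genes, 15 were on the list of NK receptors, 4 on that of chemokines and 5 on that of granzymes and cytotoxic effectors. All 15 tested genes of the NK receptor list were lower, with a median log2 ratio of -3.27, against 1.97% lower over all tested genes. Members near 0 in the Tr1-like cells, such as Ncr1 and Klrb1f, passed the 5% filter through the remaining cells and had to differ. Any of its genes was found at 10 or more counts in 22 of 82 Tr1-like cells (26.8%, 17.6 to 37.8), in 91.0% of the remaining (85.7 to 94.7) and in 62.9% of the untreated cells (56.9 to 68.5). At least 5 of them were found in 6.10%, 64.4% and 12.5%. Thus the Tr1-like cells had fewer of them than either other set.

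Cd7, a receptor of NK and T cells, was found in 6.10% of the Tr1-like cells (2.01 to 13.7), 65.0% of the remaining (57.5 to 72.0) and 27.5% of the untreated cells (22.4 to 33.1). Klrk1, encoding the activating receptor NKG2D, was found in 8.54%, 58.8% and 34.6%. Fcer1g, the signalling adaptor of several activating receptors, was found in 7.32%, 55.4% and 11.8%, and in 35.0% of the remaining cells without Gzma, against which the difference was -27.7 instead of -48.1 points. Ncr1, encoding NKp46, was found in 1 Tr1-like cell, 26.6% of the remaining and 4.64% of the untreated cells. Klrb1f had no count in any Tr1-like cell and was found in 13.6% of the remaining cells.

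Many of the lower genes lay in 1 span. Of the 22 tested genes in the NK gene complex, here the span of the Klr genes on chromosome 6 (chr6:128609227-131247362), 19 were lower and none higher, against the 1.97% lower over all tested genes. Klre1, a receptor gene of this complex, was found in 6.10%, 50.8% and 20.4%. Klra1, Klra4 and Klra5, Ly49 family genes, were found in 13.4%, 12.2% and 7.32% of the Tr1-like cells and in 48.0%, 47.5% and 43.5% of the remaining cells. Members of the Ly49 and NKG2 families resemble each other closely, and how shared reads were counted is not given. The values of a single member, and the number of separate members called, are therefore uncertain.

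All 4 tested chemokine genes were lower, with a median log2 ratio of -3.52, against 1.97% lower over all tested genes. Summed over the list, the level was 499 CPM in the Tr1-like and 1047 CPM in the untreated cells. It was 1834 CPM in the remaining cells without Gzma and 6406 CPM in those with Gzma. Ccl5 differed most in share, at 26.8% (17.6 to 37.8) of the Tr1-like cells, 85.9% (79.9 to 90.6) of the remaining and 54.6% (48.6 to 60.6) of the untreated cells. Its level was 436, 3264 and 762 CPM. Xcl1 was found in 4.88%, 36.2% and 31.4%, and Ccl4 in 6.10%, 31.1% and 5.71%. Ccl3 had no count in any Tr1-like cell and was found in 13.6% of the remaining cells, through which alone it passed the filter. Xcl1, under 5% of the Tr1-like cells, also passed it only with a higher share in the remaining cells. For both genes the direction was thus set by the filter.

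Of 12 tested granzyme and cytotoxic effector genes, 5 were lower and none higher, against 1.97% lower over all tested genes. Gzma was found in 5 Tr1-like cells (6.10%), 54.8% of the remaining and 3.93% of the untreated cells, and Gzmb in 20.7%, 65.5% and 24.3%. Against the remaining cells without Gzma only, the Gzmb difference was -26.8 instead of -44.8 points. For both genes the Tr1-like share lay within 4 percentage points of the untreated share. Prf1, encoding perforin, was found in 2.44% and 15.3% of Tr1-like and remaining cells, and Ctsw, encoding cathepsin W, in 26.8% and 65.0%. Prf1, under 5% of the Tr1-like cells, passed the filter only with a higher share in the remaining cells. Nkg7, a granule membrane gene, was found in most cells of both sets (81.7% and 93.2%) and was not called.

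Id2, a repressor of E proteins needed in innate-like lymphocytes, was found in 46.3% (35.3 to 57.7) of the Tr1-like cells, 84.7% (78.6 to 89.7) of the remaining and 91.8% (87.9 to 94.7) of the untreated cells. Il2rb, encoding the β chain of the IL-2 and IL-15 receptors, was found in 43.9%, 72.9% and 79.3%, and Ly6a, encoding Sca-1, in 19.5%, 46.9% and 57.5%. For these 3 genes the Tr1-like cells lay below both other sets. Tbx21, encoding T-bet, was found in 22.0% (13.6 to 32.5), 26.0% and 28.2%, without a call.

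Of 5 tested chemokine and exit receptor genes 1 was higher and 1 lower, and of 11 integrin and adhesion genes 1 was higher and 2 were lower, against 3.97% higher and 1.97% lower over all tested genes. Cxcr3 was lower in the Tr1-like cells (22.0% against 43.5%) and so were Itga1 (3.66% against 14.7%) and Cd69 (12.2% against 23.2%). Itga4, encoding the α4 integrin chain, was higher (30.5% against 16.4% and 2.86% in untreated cells), as were the sphingosine phosphate receptor genes S1pr1, of the follicular helper and naive-like list (18.3% against 4.52%), and S1pr4 (25.6% against 10.7%). S1pr1, under 5% of the remaining cells, passed the filter only with a higher share in the Tr1-like cells. Itga1, under 5% of the Tr1-like cells, passed it only with a higher share in the remaining cells. Cxcr6, encoding a chemokine receptor of liver iNKT cells, was found in 43.9% and 48.6% of the Tr1-like and remaining cells and in 74.6% of the untreated cells.

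**Figure D3:**
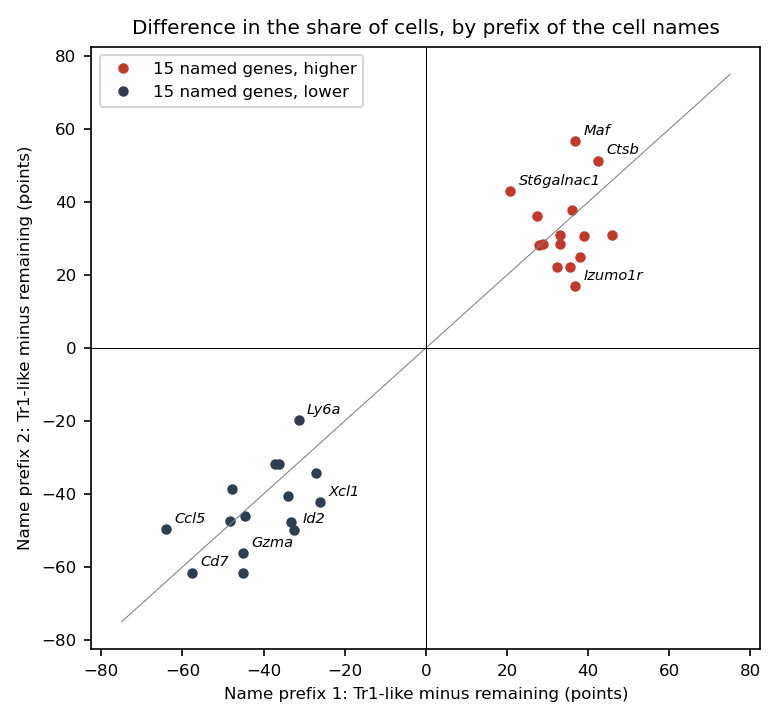
Difference in the share of cells with at least 10 counts, Tr1-like minus remaining treated cells (percentage points), within the cells of the first name prefix (x axis, 53 and 120 cells) and of the second (y axis, 29 and 57 cells), for the 30 named genes. The grey line marks equality. All 15 higher genes lie above 0 and all 15 lower genes below 0 on both axes. The genes were chosen for their difference in these same cells pooled, so the shared direction was largely set by that choice.

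Single calls were found in several other lists, to be read against the 3.97% and 1.97% called over all tested genes. Of 6 tested type I interferon response genes 1, Ifi27l2a, was higher. Of 13 immediate early genes Fosb was higher (19.5% against 5.08%, and 21.4% in untreated cells) and Dusp2 lower. Of 5 follicular helper and naive-like genes S1pr1 was higher, of 11 cytokine receptor genes Il2rb was lower, of 6 Rgs genes Rgs1 and Rgs2 were lower, and of 4 receptors of immune-regulating ligands P2rx7, the ATP-gated channel gene, was higher (18.3% against 5.08%). None of 4 tested cell division genes, 8 cell cycle inhibitor and apoptosis genes, 12 glycolysis genes, 10 MHC and antigen processing genes, 2 DNA methylation genes or 78 ribosomal protein genes was called. For the 12 glycolysis genes the median log2 ratio was 0.50 and the median share difference 8.78 points.

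Division genes were found in a minority of the cells. At least 10 counts summed over the 16 genes of the list were found in 29.3% of the Tr1-like, 20.3% of the remaining and 14.3% of the untreated cells. At least 4 of them were found in 7 of 82 Tr1-like cells (8.54%, 3.5 to 16.8), 13 of 177 remaining cells (7.34%, 3.97 to 12.2) and 1 of 280 untreated cells (0.357%, 0.00904 to 1.97).

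T-cell receptor β segments differed little in the main one. Among cells with at least 10 counts of a Trbv segment, the leading segment was Trbv13-2 in 55.9% of 68 Tr1-like cells (43.3 to 67.9), 47.8% of 159 remaining cells (39.8 to 55.9) and 51.1% of 235 untreated cells (44.5 to 57.6). Trbv29 led in 8.82% (3.31 to 18.2), 22.0% (15.8 to 29.3) and 18.3%, and Trbv1 in 14.7% (7.28 to 25.4), 3.77% (1.40 to 8.03) and 6.38%. At least 2 segments reached 10 counts in 9, 35 and 46 cells, and doublets were not called.

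The Tr1-like cells varied in how many of the named genes they had. These genes were chosen for their difference between the same cells, so the medians of Tr1-like and remaining cells had to differ. Of the 15 named higher genes, a Tr1-like cell had a median of 8 (range 0 to 14) at 10 or more counts, against 3 (range 0 to 10) in the remaining and 3 (range 0 to 8) in the untreated cells. The median was 7 in the 44 cells with 1 selecting gene, 10 in the 25 cells with 2 and 12 in the 13 cells with all 3. The genes per cell moved the same way, with medians of 1070 over the 38 cells with 2 or 3 selecting genes and of 996.5 over all 82, and their part was not tested. Of the 15 named lower genes the median was 2 (range 0 to 14), against 10 in the remaining and 5 in the untreated cells.

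A few Tr1-like cells had many of the lower genes. At least 8 of the 15 were found in 5 Tr1-like cells, and all 5 were among the 30 cells with Lag3 alone. None of the 52 cells with Il10 or Il21 had more than 6. Cd7, Fcer1g, Klre1 and Xcl1 were found in 0 of these 52 cells, for which 3 counts of the total would be a share of 5.77% and the exact upper limit is 6.85%, and in 16.7%, 20%, 16.7% and 13.3% of the 30 cells with Lag3 alone. Gzma was found in 1.92% of the 52 cells and 13.3% of the 30 with Lag3 alone. The other named lower genes were also each found in some of the 52 cells, from 1 cell (Klra5) to 20 (Id2). Any gene of the NK receptor list was found in 23.1% (12.5 to 36.8) of the 52 cells and 33.3% (17.3 to 52.8) of the 30.

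Other genes were shared by both subsets. Maf was found in 50% (35.8 to 64.2) of the cells with Il10 or Il21 and 53.3% (34.3 to 71.7) of those with Lag3 alone, Cd4 in 30.8% and 30.0%, and Ctsb in 73.1% and 70%. Only 18 of the 52 cells with Il10 or Il21 had no Lag3, near which Cd4 lies. The Cd4 share of these 18 cells, given above, was lower, with an interval that contains the 30.8%. They had a median of 785 genes per cell, against 996.5 over the 52, and the part of this was not tested. Icos (44.2% and 20%), Sccpdh (55.8% and 26.7%), Izumo1r (48.1% and 26.7%) and Il4 (34.6% and 13.3%) were found more often in the cells with Il10 or Il21, and Il2rb (30.8% and 66.7%) and Sdf4 (42.3% and 63.3%) more often in those with Lag3 alone. Of the genes compared between these subsets, Il2rb and Fcer1g had counting intervals that did not overlap.

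**Figure D4:**
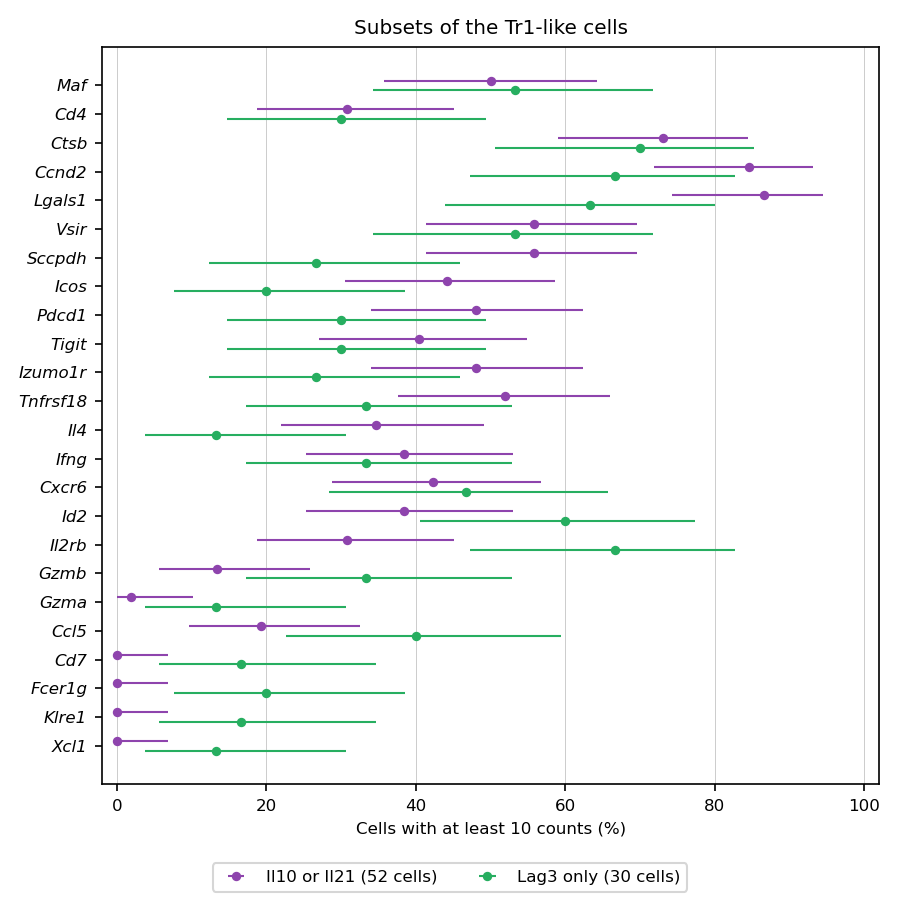
Share of cells with at least 10 counts (%, points) with exact 95% intervals (bars) in the 52 Tr1-like cells with Il10 or Il21 and the 30 with Lag3 alone. Maf, Cd4 and Ctsb lie side by side in both subsets, whereas Cd7, Fcer1g, Klre1 and Xcl1 lie at 0 in the cells with Il10 or Il21. The 52 cells include cells that also have Lag3.

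The methylation data gave a readout that the rule did not use. Whole genome bisulfite sequencing had been done on sorted LiNKT cells of 7 untreated female NOD mice of 17 weeks and 4 treated NOD mice of 16 weeks whose sex is not given, and 1 value per site and group was deposited, so mice of the other sex than in the SmartSeq2 data were used for the untreated group. The authors had deposited regions that they had selected for a difference between these groups, so a difference at a region is no finding. What can be asked is which genes hold a region. In bulk DNA, a change in the mix of cells and a change within cells cannot be told apart, and no coverage was given for the sites.

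A region in the gene body or within 2 kb of the start site was found at 40 of the 127 higher genes (31.5%), at 6 of the 63 lower genes (9.52%) and at 408 of all 3195 tested genes with a position (12.8%). At 37 of the 40 higher genes the mean over CpG sites was lower in the treated cells, and at 3 higher, whereas it was lower at 287 of the 408 tested genes with a region and in 69.0% of all deposited regions. At the 6 lower genes it was lower at 2 and higher at 4. Within 2 kb of the start site, a region was found at 12.6% of the higher, 1.59% of the lower and 2.88% of all tested genes. A longer gene offers more room for a region. Median gene length was 19.0 kb for the higher, 8.11 kb for the lower and 14.7 kb for all tested genes, and its part was not tested.

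Of the 15 named higher genes, 7 held a region and all 7 were lower in treated cells, a direction shared by 69.0% of all deposited regions. At Ctsb the mean of 1 region went from 61.9% to 24.6%, at Maf 2 regions went from 60.3% to 30.4% over 43 CpG cytosines, and at Srgn 1 region went from 68.6% to 33.3%. At Sdf4 the mean went from 84.4% to 36.9% over 64 CpG cytosines. Of these, 42 lay in a region that also covers the start site of Tnfrsf4, with its centre 377 bases from that site, and is counted for both genes. At Tigit the mean went from 92.2% to 42.6%, at Izumo1r from 77.1% to 44.9% and at Pdcd1 from 44.2% to 8.31%. Among the other regions shown, 1 lay at Il10 (60.8% to 17%) and 3 at Il21 (88.6% to 29.1%). Ccl5 (88.4% to 71.9%) and Il2rb (20.6% to 5.08%) were the 2 of 15 named lower genes with a region, and both were also lower in treated cells.

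**Figure D5:**
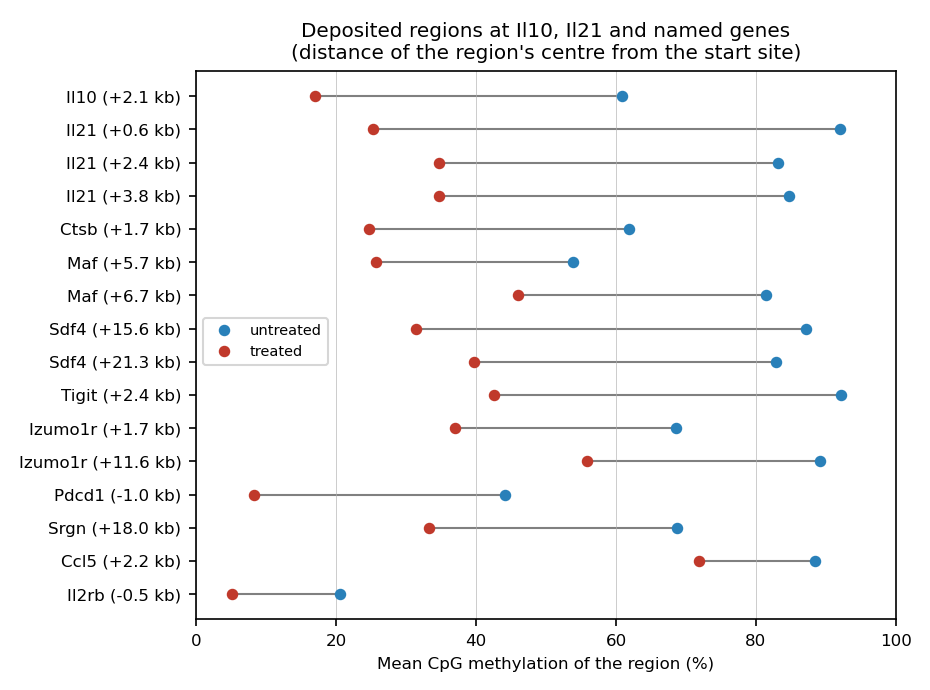
Mean CpG methylation (%) in untreated and treated LiNKT cells of each deposited region at Il10, Il21 and the named genes that hold one, with the distance of its centre from the gene's start site in brackets. Each line joins the values of 1 region, and each of the 16 regions shown is lower in the treated cells. The authors had selected the regions for a difference, and 69.0% of all deposited regions are lower.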

How the data were processed

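Single LiNKT cells were profiled by SmartSeq2, a full-length, plate-based method without molecular identifiers. The authors aligned the reads to GRCm38 with STAR and deposited raw counts per gene and cell, and neither strand handling nor a doublet filter is given in the sources used here. The 55401 rows were named with GENCODE release M21, and the 473 without a unique symbol kept their identifier. No doublets were called. No cell name was shared by both tables and no cell had the counts of another. CPM were computed from counts summed over cells, with a prior of 1 CPM in ratios, in Python 3.11.15 with pandas 2.3.3, numpy 2.4.6 and scipy 1.17.1. The comparison was checked on simulated data with known changes. The 2 prefixes of the cell names served as batches, and what they mark is not given in the sources used here.

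The authors also deposited the methylated fraction of single cytosines and regions called between the groups (mapped with BSMAP to mm10 and called with metilene). Of the 376954 sites, 99.7% lay in one of the 2873 regions, and only the 58375 sites at a CpG of GRCm38.p6 were used. The deposited differences and q-values of the regions were not used. The chromatin fragments were not used here, and 1 locus is not reported here.

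Named genes are the 15 with the largest share difference among the higher and the 15 among the lower genes, besides genes of the lists, and unnamed gene models and pseudogenes were only counted. The spans of Ctsb, Maf, Vsir, Ccnd2, Limd2, Cd7, Ctsw and Xcl1 overlap another annotated gene. The members, lists and rules were chosen with earlier results of these data known. Other minima, filters, priors, selecting genes and thinned counts were tried as alternatives.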

Additional observations from a re-analysis of the deposited data

How the results depend on the processing

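The share of Tr1-like cells among treated cells was 31.7%, stayed within its interval under a count minimum of 5 or 50, a depth minimum of 300000 counts, thinning, no macrophage filter and within each name prefix, and was 20.1% (52 cells) when only Il10 and Il21 were used. No untreated cell met the rule under any of these. The counts of 127 higher and 63 lower genes became 325 and 243 among the 86 cells of the second name prefix, sets of 29 and 57 cells, for which the cause was not tested, and were within 1.5 times under every other alternative. With Il10 and Il21 only, 156 higher and 73 lower genes were called, 84 and 52 of them shared with the 127 and 63, and within the first name prefix 176 and 79, with 96 and 55 shared. After thinning, 98 higher and 56 lower genes were called, 89 and 53 of them shared with the 127 and 63. The Maf difference of 43.9 points was 62.6 points when 1 count sufficed for detection and 56.7 points in the second name prefix. Against the remaining cells without Gzma only, an alternative chosen after seeing the data, 137 genes were higher and 59 lower, 83 and 36 of them shared, and the Gzma difference was 6.10 points because that set holds no Gzma by construction. Of 300 values of the 30 named genes under these alternatives, 286 stayed within their interval, 13 left it in the same direction and 1, this one, changed direction. Those that moved by over 1.5 times were Sdf4 (16.7 instead of 30.8 points with Il10 and Il21 only), Izumo1r (16.9 instead of 30.1 points in the second name prefix and 19.0 points against cells without Gzma), St6galnac1 (43.1 instead of 28.5 points in the second name prefix), and Fcer1g (-27.7 points) and Gzmb (-26.8 points) against cells without Gzma. No paired analysis was possible because each group was 1 sample whose cells carry no mouse or replicate number. Depth limits the shares of genes near 10 counts, and 3 mice per group, not told apart, limit every comparison of single cells.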
